A study of Mus musculus with 2 samples.

Results

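The extracellular matrix genes are 42 genes for collagens, basement membrane proteins, glycoproteins, proteoglycans and crosslinking enzymes, taken by symbol from the 32285 features counted in 2 single-cell libraries of subcutaneous MC38 tumors. The symbols came from a given list, and all 42 were found among the features. MC38 is a mouse colon carcinoma line. One library came from tumors given MSA-2, a STING agonist, by injection into the tumor 3 times at intervals of 3 days. The other came from tumors that the sample labels call untreated and that the series record describes as injected with saline and DMSO. Each library was made from cells pooled from 3 mice or samples, so there is 1 library per condition and no measure of the spread between tumors. The age, sex and strain of the mice were not given in the labels used here. The methods of the study state a strain and an age for its MC38 model, with both sexes used, but not for these libraries in particular. The values therefore describe these 2 libraries alone and carry no test.

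The extracellular matrix is the protein and sugar scaffold between cells. Fibroblasts lay down most of the fibrillar collagen of a tumor, while endothelial cells and the mural cells around them build the basement membrane of vessels. Cancer cells and myeloid cells can add glycoproteins such as fibronectin, thrombospondin and versican, and the resulting matrix shapes stiffness, growth factor storage and the entry of immune cells.

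The untreated library held 14386 barcodes and 198135335 unique molecular identifiers (UMIs), and the MSA-2 library held 14617 barcodes and 204387165 UMIs. After filtering, 13334 untreated cells and 13393 MSA-2 cells were kept, and 53 barcodes occurred in both libraries. Kept cells were assigned to classes by the number of marker genes detected, and none of the 42 matrix genes served as a marker. Fibroblasts needed 7 of 12 markers such as Pdgfra, Dpt and Pcolce, endothelial cells 5 of 12, macrophages 5 of 12 and NK/T cells 3 of 10. Fibroblasts were 188 untreated cells, which is 1.41% of the kept cells (1.22 to 1.62), and 513 MSA-2 cells, which is 3.83% (3.51 to 4.17). Endothelial cells numbered 58 and 70 in the untreated and MSA-2 libraries, macrophages 3301 and 909, Ly6c2 monocytes 210 and 370, neutrophils 35 and 2728, NK/T cells 1483 and 219, and mural cells 22 and 15. Here and below intervals are exact 95% intervals, binomial for shares and conditional binomial for ratios, and they cover counting error only.

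The label "tumor cells" was checked against 12 epithelial markers such as Krt8, Krt18 and Epcam. At least 3 of these markers were detected in 3 of the 13334 untreated cells and in 0 of the 13393 MSA-2 cells. No epithelial class was formed, and the cells that passed no gate and had at least 5000 UMIs but no sign of leukocytes are called the CD45-negative remainder. This remainder held 5984 untreated cells (44.9% of kept cells) and 6565 MSA-2 cells (49.02%). The methods of the study name a sort of the cells, without its markers, and call the sequenced cells immune, so shares of cells and of UMIs describe the sorted suspension. Levels are given as UMIs of a gene per 1000000 UMIs of the class (CPM). The level of Ptprc, which encodes CD45, was 12.1 CPM in the untreated remainder and 7.71 CPM after MSA-2. Ptprc was the leukocyte marker used to leave cells out of the remainder, so its low level there is set by the gate. The summed level of the epithelial list in it was 2.33 and 1.49 CPM. The genes that set it apart from macrophages and NK/T cells were led by Zfpm2, by Dcn, itself a matrix gene, and by Pcdh9, Cald1 and Sdk1.

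The 42 genes took 1142504 UMIs of the kept untreated cells and 1467530 UMIs of the kept MSA-2 cells. Of these, the fibroblasts held 17.96% in the untreated library and 32.0% after MSA-2, although they were a small share of the cells. The remainder held 71.2% and 58.8%, and macrophages held 2.72% and 0.590%. Endothelial cells held 0.740% and 0.533%. Neutrophils went from 0.0216% to 2.45% and NK/T cells from 1.85% to 0.198%. The plot of UMI sources shows that the holder of a transcript pool differed from gene to gene. In the untreated library the remainder was the largest holder for 27 genes and the fibroblasts for 13. In the MSA-2 library the numbers were 21 and 20. The largest holder of Thbs1 was the macrophages (41.4%) in the untreated library and the neutrophils (35.8%) in the MSA-2 library. For Col15a1 in the untreated library it was the endothelial cells, with 23.9%.

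**Figure D1:**
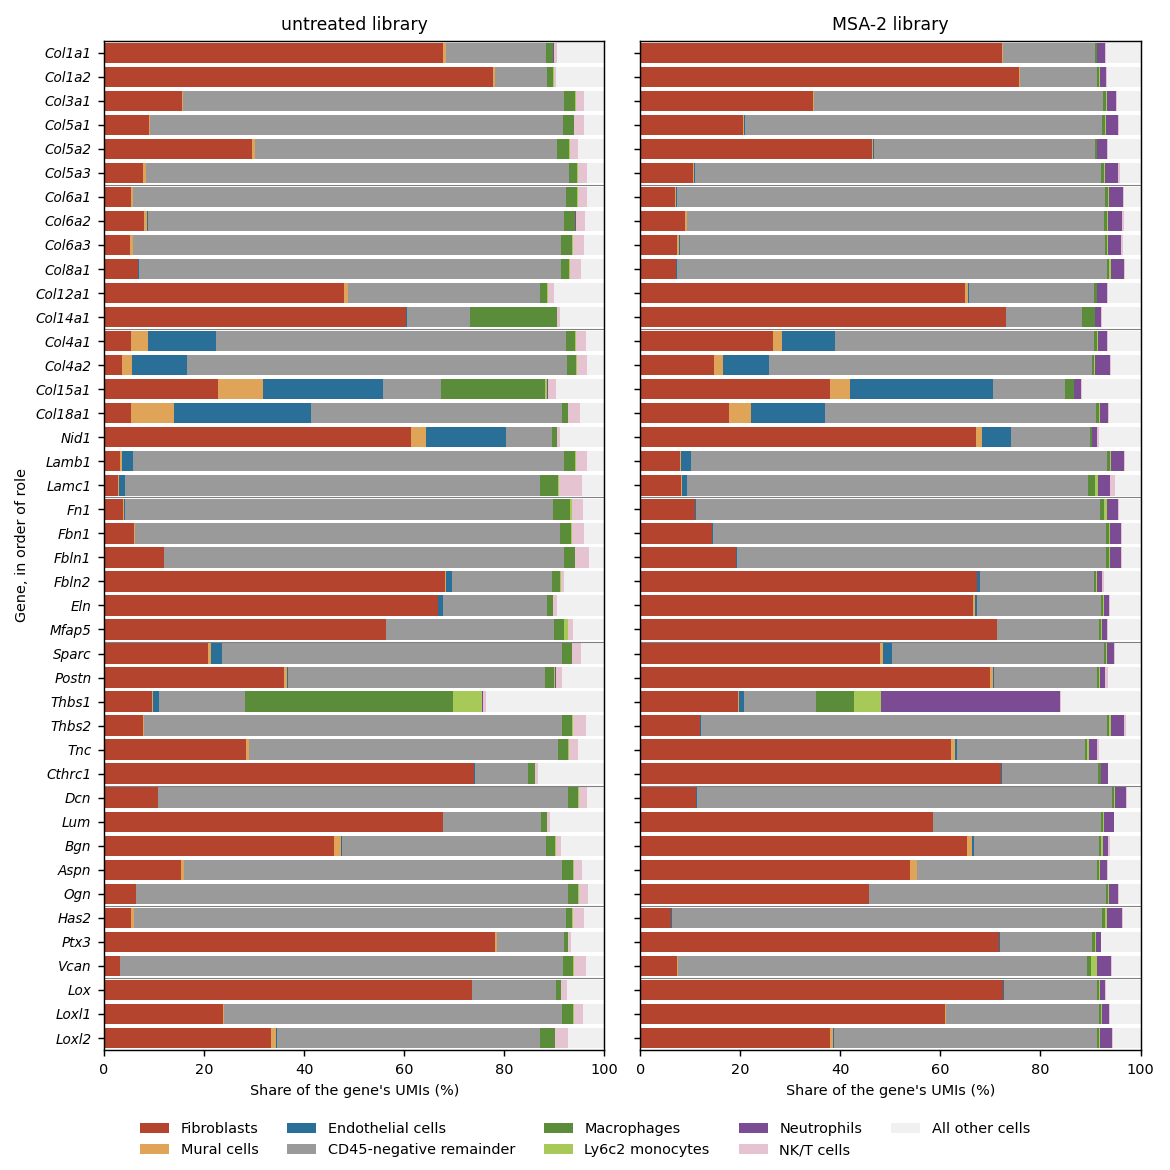
Share of each gene's UMIs (horizontal axis, percent) held by each class, untreated library on the left and MSA-2 library on the right, with the 42 genes in order of role. Of the Col1a1 UMIs fibroblasts held 67.8% and 72.3%, while the remainder held 86.5% and 85.7% of those of Col6a1.

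Per UMI sequenced, the order of the classes was different. The class with the highest CPM was the fibroblasts for 29 of the 42 genes in the untreated library and for 26 after MSA-2. Mural cells led for 8 and 11 genes, endothelial cells for 4 and 3, and Ly6c2 monocytes for 1 and 1. A class needed only 10 UMIs of a gene to lead, and untreated mural cells led for Has2 with 15. Some leads were close, such as Col5a3 after MSA-2 at 258 CPM in mural cells and 254 in fibroblasts. The monocyte gene was Thbs1 without treatment and Vcan after MSA-2, the latter at 705 CPM against 700 in fibroblasts. Neutrophils led for 1 gene in the MSA-2 library. Summed over the 42 genes, fibroblasts reached 77822 CPM in the untreated library and 54596 CPM in the MSA-2 library, a log2 ratio of -0.51. Endothelial cells went from 14482 to 9043 CPM (-0.68). The remainder stood at 5759 and 5457 CPM, and macrophages at 1555 and 1820 CPM. Mural cells kept close values of 27173 and 27207 CPM, from 22 and 15 cells.

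NK/T cells, which should make little matrix, serve as the comparison for free RNA. They held 2417 CPM of the 42 genes in the untreated library and 2051 CPM in the MSA-2 library, more than the macrophages. Their median depth was 3511 and 4943 UMIs, against 5643 and 4661 for macrophages, 12872 and 14426 for fibroblasts and 21104 and 20744 for the remainder. Part of the NK/T level lay in few cells, so it is not a measure of free RNA alone. In the untreated library 76 of 1483 NK/T cells had at least 10 Fn1 UMIs and held 76.8% of them, and 80 cells held 73.2% of the Col3a1 UMIs. Whether these are mixed or wrongly gated cells was not tested. The share of cells with a UMI counts each cell equally, so it is given beside the level, and a gene is read as background where neither is above that of NK/T cells in the same library. Shares of cells with a UMI are given after each cell was thinned to 1500 UMIs, with the share before thinning beside it.

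**Figure D2:**
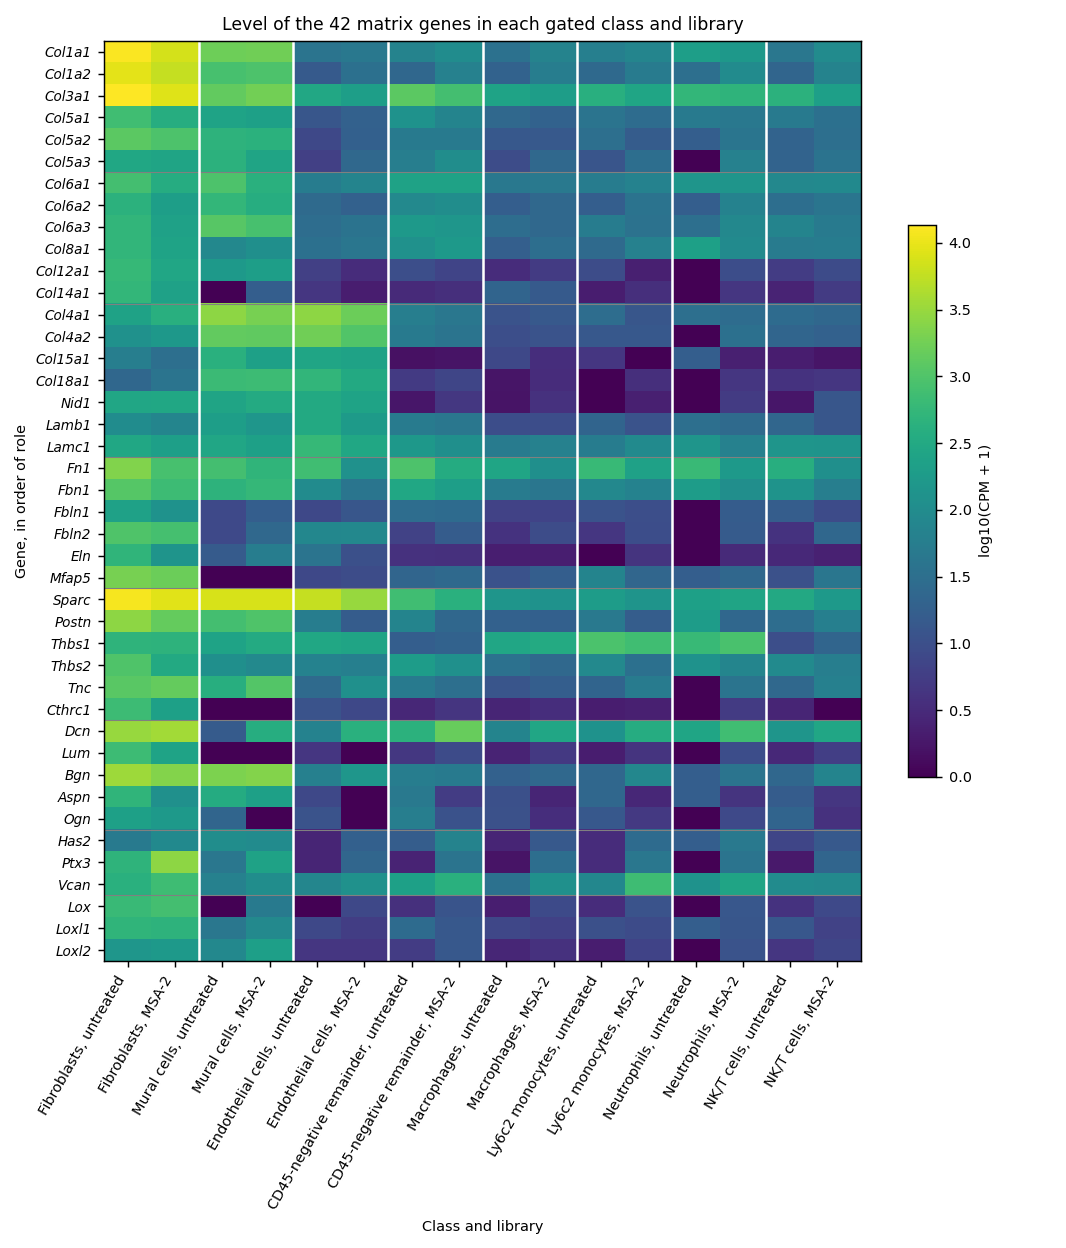
Level of each of the 42 genes as log10 of CPM plus 1 (color) by class and library (columns), with genes in order of role (vertical axis). Col1a1 reached 12791 and 7424 CPM in fibroblasts and 43.3 and 97.4 CPM in NK/T cells.

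Sums over all cells mix the number of cells in each class with the level within the class. Over all kept cells 28 of the 42 genes reached 50 CPM in either library, and 7 of these 28 were at least 2-fold higher in the MSA-2 library, against 4.64% of all 3624 genes at that level. These 7 were Col5a3, Fbln2, Mfap5, Dcn, Has2, Ptx3 and Vcan. With TMM scaling 5 of them stayed past 2-fold, with Col5a3 at 0.997 and Mfap5 at 0.999, and with equal weight per cell Mfap5 was at 0.97. With a minimum of 10 CPM the count was 10. Fn1 and Ogn were at least 2-fold lower, against 2.87% of all genes. The median log2 ratio of the 42 genes was 0.14, and that of all 17404 genes with at least 50 UMIs was 0.00.

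To separate both parts, the MSA-2 level of each class was combined with the share of UMIs that the class had in the untreated library. Over all cells 28 genes were higher in the MSA-2 library, against 50.5% of all genes with enough UMIs. With class shares held at their untreated values 15 were, and with levels held and only the shares changed all 42 were. The sign differed between the observed ratio and the ratio at fixed shares for 13 genes. No share of all genes stands beside the counts of 15, 42 and 13, so they are not read as particular to matrix genes. These counts depend on the gates, and with 1 marker fewer needed they were 18 genes higher at fixed shares and 10 with another sign. The fibroblasts' own share of all UMIs was 1.44% in the untreated library and 4.48% in the MSA-2 library.

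**Figure D3:**
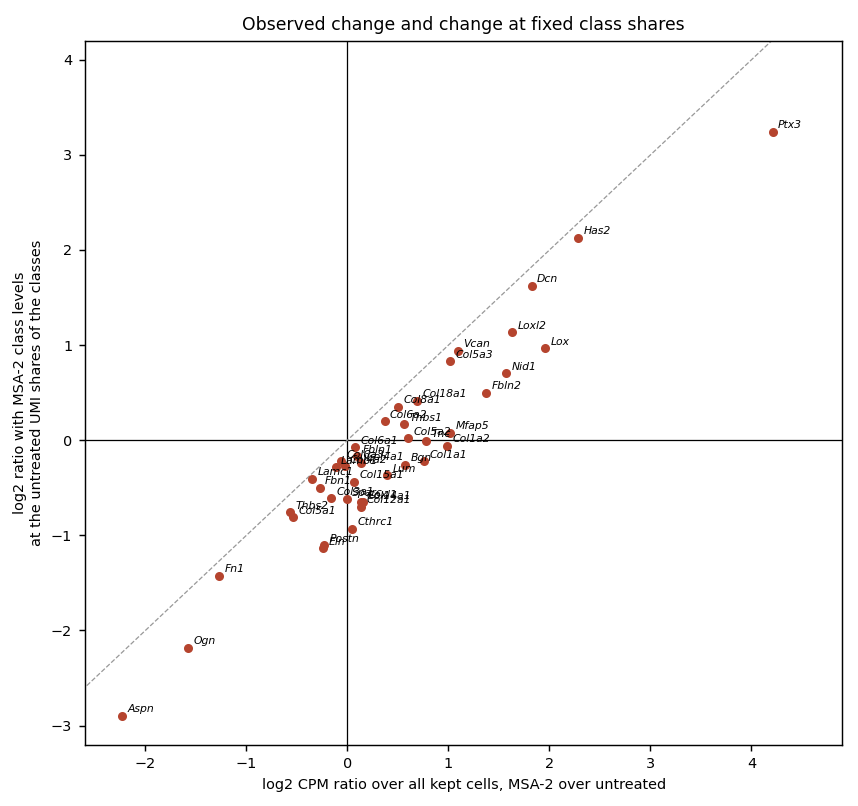
Log2 CPM ratio of MSA-2 over untreated for each of the 42 genes over all kept cells (horizontal axis) and with MSA-2 class levels at the untreated UMI shares of the classes (vertical axis). Col1a1 lies at 0.76 and -0.22, and Ptx3, the point farthest to the upper right, at 4.21 and 3.24.

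Within fibroblasts 41 of the 42 genes reached 50 CPM. Of these, 12 were at least 2-fold lower in the MSA-2 library, against 5.88% of all 3468 genes, and 1, Ptx3, was at least 2-fold higher, against 7.27%. The median log2 ratio of the 42 genes was -0.50, and that of all 10114 genes with enough UMIs in fibroblasts was -0.15. With 1 marker fewer needed for the gate the median of the 42 genes was -0.09. In all, 31 genes were lower and 11 higher, and of all 10114 genes 61.45% were lower. TMM scaling raised every fibroblast ratio by 0.17 on the log2 scale, and 9 of the 12 genes were still at least 2-fold lower. All 12 passed that line with 1 more marker needed for the gate. With 1 marker fewer, 5 did, and all 12 were lower. Under that setting 8 other genes changed from lower to higher, namely Col5a2 (0.19), Col5a3 (0.41), Fbln2 (0.38), Mfap5 (0.37), Sparc (0.12), Thbs1 (0.53), Bgn (0.05) and Loxl1 (0.44), so the direction of small fibroblast ratios depends on the gate. The gated cells also differed in other ways. A Col1a2 UMI was found in 169 of 188 untreated fibroblasts (89.9%) and in all 513 MSA-2 fibroblasts. Of the 12 fibroblast markers, 10 were lower with MSA-2 and Fap and Rarres2 were higher, and their summed level was 4932 and 5427 CPM. The most abundant marker was Serpinf1 at 1185 CPM in untreated fibroblasts and Rarres2 at 2793 CPM after MSA-2. The 7 markers of Ly6c2 monocytes summed to 912 and 3832 CPM in fibroblasts, and Plac8 alone held 894 and 3803 CPM of that. The 10 neutrophil markers summed to 31.9 and 454 CPM in fibroblasts, with S100a9 most abundant after MSA-2, against 29.0 and 381 CPM in NK/T cells. The part of these differences in the matrix ratios was not tested.

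**Figure D4:**
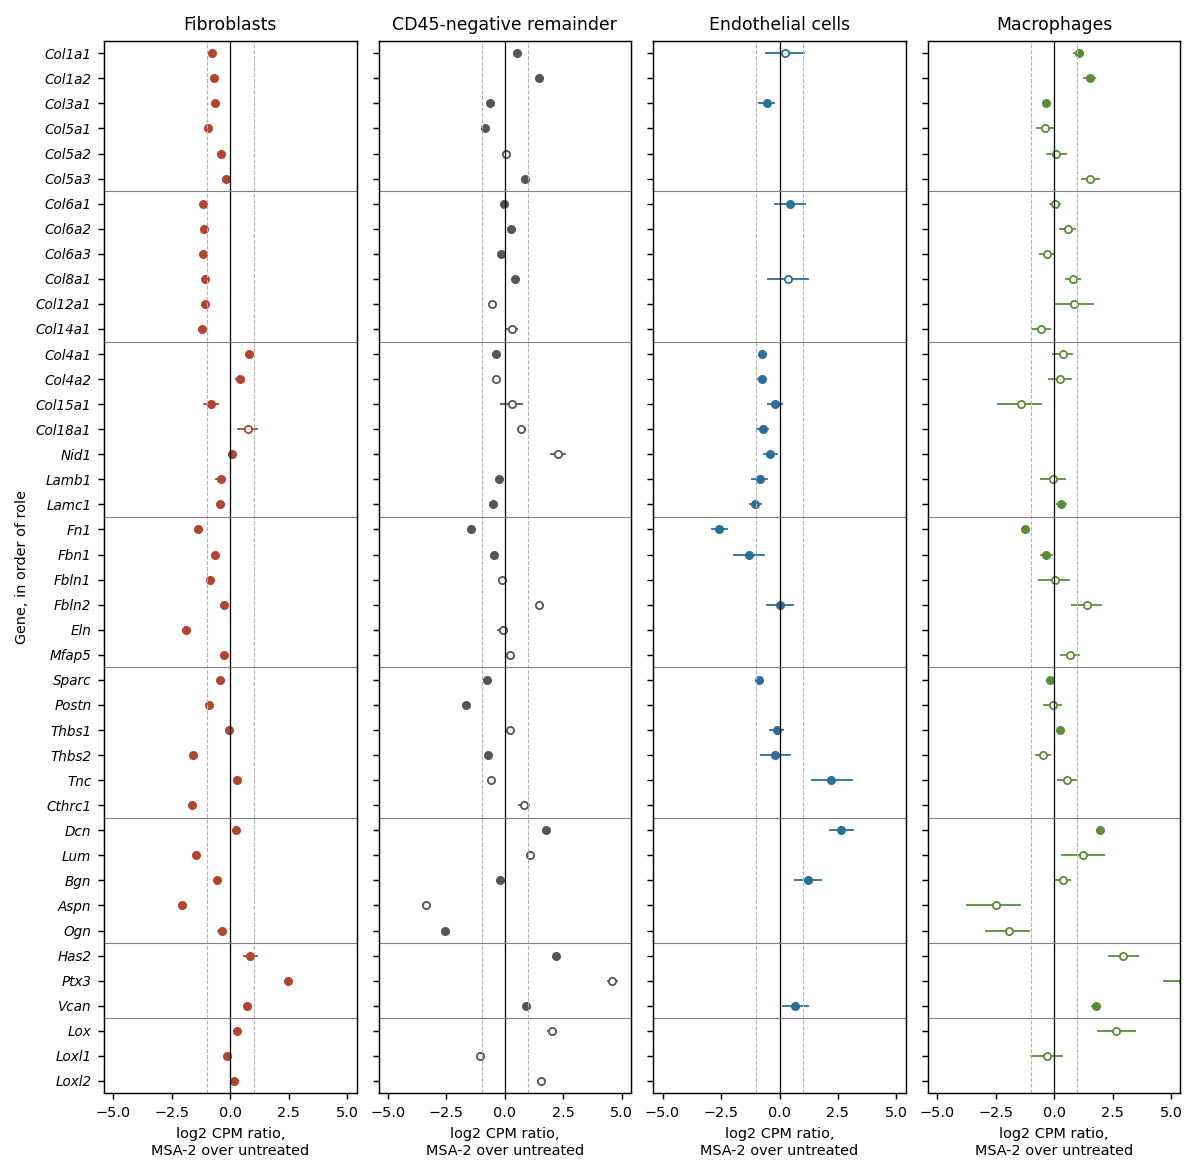
Log2 CPM ratio of MSA-2 over untreated (horizontal axes) with its counting interval for each of the 42 genes (vertical axis) in 4 classes. Open points mark genes under 50 CPM in both libraries, genes with fewer than 50 UMIs or beyond the axis are not drawn, and dashed lines mark a 2-fold change. In fibroblasts 31 of the 42 points lie below 0.

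The fibrillar collagens form the load-bearing fibers. Col1a1 and Col1a2 encode the chains of type I collagen. In fibroblasts Col1a1 stood at 12791 CPM in the untreated library and 7424 CPM in the MSA-2 library, a log2 ratio of -0.78 (-0.80 to -0.77). Over all cells it went the other way, from 271 to 460 CPM, a log2 ratio of 0.76. Col1a2 fell in fibroblasts from 9379 to 5800 CPM (-0.69) while its sum over all cells rose from 174 to 343 CPM (0.98). Both genes were thus lower per fibroblast UMI and higher in the tumor as sampled, but with 1 marker fewer needed the fibroblast ratios were -0.12 and -0.02. The middle fibroblast showed the same direction, with a median over cells of 13427 CPM of Col1a1 in the untreated library and 6198 CPM in the MSA-2 library.

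Col3a1, the chain of type III collagen, was spread more widely. Fibroblasts held 13627 CPM untreated and 8662 CPM with MSA-2 (-0.65), and the remainder held 1243 and 789 CPM (-0.66), above the 450 and 213 CPM of NK/T cells. After thinning, 69.0% of untreated and 58.9% of MSA-2 remainder cells had a Col3a1 UMI, against 25.6% and 20.4% of NK/T cells. Before thinning the shares were 99.5% and 99.04%, against 49.9% and 50.2%. The type V chains, which help to set fibril diameter, were lower in fibroblasts by unequal steps. Col5a1 went from 748 to 380 CPM (-0.98), and Col5a2 from 1257 to 958 CPM (-0.39). Col5a3 changed least of the 6 in fibroblasts, from 287 to 254 CPM (-0.18), and was higher in the remainder, at 58.4 and 106 CPM (0.86). All 6 fibrillar collagens were lower in fibroblasts at the gate used, against 61.45% of all genes. With 1 marker fewer 4 of the 6 were, and no share of all genes was taken for that gate.

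In the remainder type I collagen lay near the level of NK/T cells. Col1a1 was at 70.6 CPM untreated and 102 CPM with MSA-2, against 43.3 and 97.4 CPM in NK/T cells. The thinned share of remainder cells with a Col1a1 UMI was 8.61% and 10.5% (55.4% and 71.5% before thinning), against 5.997% and 12.3% in NK/T cells (16.1% and 32.9%). Cells near the fibroblast gate carried more than their share of it. Remainder cells with 5 or 6 fibroblast markers were 5.82% of the remainder without treatment and 2.60% with MSA-2, and they held 21.7% and 33.1% of its Col1a1 UMIs. Col1a2 in the remainder went from 23.5 to 63.7 CPM (1.44), while NK/T cells went from 21.4 to 68.5 CPM, and thinned shares were 3.13% and 7.37% (32.8% and 57.9% before), against 2.72% and 6.64% in NK/T cells (10.8% and 23.3%). The rise in the remainder was thus close to that in NK/T cells, where 1 MSA-2 cell held 32 of the 97 UMIs.

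Col6a1, Col6a2 and Col6a3 build the beaded filaments of type VI collagen that tie cells to fibers. Col8a1 encodes a short-chain collagen, and Col12a1 and Col14a1 encode collagens that coat fibrils. All 6 were at least 2-fold lower in MSA-2 fibroblasts, against 5.88% of all genes. Col6a1 went from 805 to 356 CPM (-1.18, interval -1.26 to -1.10). Col6a3 went from 532 to 235 CPM (-1.18), and Col6a2 from 453 to 210 CPM (-1.11). Col14a1 had the lowest ratio of this role, with 545 CPM untreated and 232 CPM with MSA-2 (-1.23). The share of fibroblasts with a Col14a1 UMI after thinning was 94 of 188 cells without treatment and 30.8% with MSA-2 (81.4% and 82.3% before). In thinned NK/T cells it was 0.209% and 0 of 211 cells, which allows up to 1.42%. Col8a1 went from 524 to 250 CPM and Col12a1 from 594 to 284 CPM, each with a ratio of -1.07. With TMM scaling Col6a2, Col8a1 and Col12a1 fell short of 2-fold, at -0.94, -0.90 and -0.90. With 1 marker fewer needed all 6 did, with Col12a1 at -0.45 and Col14a1 at -0.57.

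Most type VI transcripts nevertheless lay in the remainder. There Col6a1 stood at 242 CPM untreated and 236 CPM with MSA-2 (-0.04, and 0.15 with at most 2 fibroblast markers), against 83.4 and 89.7 CPM in NK/T cells. Col6a3 was at 165 and 147 CPM (-0.17), and Col6a2 at 87.2 and 105.2 CPM (0.27). Col8a1, at 122 and 164 CPM, was higher with MSA-2 (0.43), against 50.9 and 53.0 CPM in NK/T cells. The type VI ratios in the remainder thus lay closer to 0 than those in fibroblasts, and the difference between the classes was not tested.

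Col14a1 also had a myeloid source. Macrophages held 20.5 CPM in the untreated library and 14.1 CPM in the MSA-2 library, against 1.60 and 4.24 CPM in NK/T cells and 2.13 and 2.62 CPM in the remainder. The thinned share was 2.77% of untreated macrophages (2.23 to 3.40) and 2.18% of MSA-2 macrophages (1.32 to 3.39), and 10.2% and 6.16% before thinning. No untreated macrophage had 10 or more Col14a1 UMIs, and the highest single cell held 5 of the 410. The low level was thus spread over many macrophages.

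Type IV collagen is the sheet-forming collagen of basement membranes. Its chains α1 and α2 come from Col4a1 and Col4a2, which lie head to head on chromosome 8 and are read in opposite directions. Their annotated starts overlap, and the stretch that both transcripts share, at chr8:11312805-11312826 on the plus strand of GRCm38.p6 (RefSeq), is shown because both genes moved together.
Col4a1 and Col4a2, shared start: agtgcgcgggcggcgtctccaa
It holds none of the motifs searched for. The longer promoter window of each of these genes holds CCAAT and none of the other motifs. Of the 42 genes, 26 matched an entry in the RefSeq promoter table.

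In endothelial cells Col4a1 went from 2695 CPM untreated to 1612 CPM with MSA-2, a log2 ratio of -0.74 (-0.85 to -0.64). Col4a2 went from 1717 to 1010 CPM, a ratio of -0.77 (-0.90 to -0.63). The ratios of the paired genes were close to each other. In the remainder the pair was also lower together, at -0.40 and -0.36. In fibroblasts the pair moved up together instead. Col4a1 rose there from 239 to 408 CPM (0.78, interval 0.65 to 0.90), and Col4a2 from 122 to 162 CPM (0.41). The share of fibroblasts with a Col4a1 UMI rose with it, from 23.9% to 46.2% after thinning and from 70.7% to 91.8% before, against 2.09% and 0.474% in thinned NK/T cells.

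The other basement membrane genes encode collagens XV and XVIII, which carry sugar chains, the laminin chains β1 and γ1, and nidogen 1, which links laminin to type IV collagen. Col18a1 in endothelial cells stood at 523 CPM untreated and 318 CPM with MSA-2 (-0.72). Lamb1 went from 320 to 179 CPM (-0.84), and Lamc1 from 594 to 291 CPM (-1.03). Nid1, at 324 and 247 CPM (-0.39), and Col15a1, at 269 and 237 CPM (-0.18, interval -0.49 to 0.13), moved least. All 7 basement membrane genes were lower in MSA-2 endothelial cells, as were 59.8% of all genes, but the interval of Col15a1 includes 0 and with equal weight per cell its ratio was 0.03. The 12 endothelial markers summed to 8494 and 6003 CPM in the same cells, and the 10 neutrophil markers to 6.85 and 358 CPM. The part of these marker differences in the matrix ratios was not tested. In fibroblasts 4 of the 7 basement membrane genes were higher, against 38.55% of all genes, and with 1 more marker needed Nid1 was not (-0.10). Nid1 was high in both classes, with 275 and 287 CPM in untreated and MSA-2 fibroblasts. Fibroblasts held 61.3% and 67.1% of its UMIs, and the rise of its sum over all cells from 6.46 to 19.2 CPM (1.57) came with a ratio of 0.06 in fibroblasts. With class shares held at their untreated values its ratio was 0.70. Its level in remainder cells with at most 2 fibroblast markers went from 0.63 to 2.34 CPM. Lamb1 in fibroblasts went from 101 to 75.4 CPM (-0.42) and Lamc1 from 290 to 215 CPM (-0.43). Lamc1 in macrophages, at 52.0 and 64.6 CPM, was below the 143 and 136 CPM of NK/T cells. A Lamc1 UMI was found in 566 of 1483 untreated NK/T cells, and cells with at least 10 held 7.52% of the UMIs. Whether NK/T cells can serve as the comparison for free RNA for this gene was not tested. Col15a1 in untreated macrophages was at 6.80 CPM, against 1.14 CPM in NK/T cells, and with MSA-2 at 2.52 CPM from 12 UMIs, against 0.706 CPM from 1 UMI in NK/T cells.

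Over all matrix genes, 19 reached 50 CPM in endothelial cells. Lamc1, Fn1 and Fbn1 were at least 2-fold lower, against 5.01% of all 3852 genes, and Dcn, Tnc and Bgn were at least 2-fold higher, against 5.56%. The median over the 21 genes with at least 50 UMIs was -0.18, and over all genes -0.13. Dcn rose from 66.8 to 415 CPM in endothelial cells, but 6 MSA-2 cells held 77.4% of its UMIs, and NK/T cells of that library held 279 CPM. Tnc was at 25.7 and 118 CPM, with 27 of the 102 MSA-2 UMIs in 1 cell. Bgn was at 63.4 and 146 CPM. NK/T cells held 23.7 and 62.8 CPM of Tnc, with 71 of the 89 MSA-2 UMIs in 1 cell, and 23.0 and 71.3 CPM of Bgn, with 49 of the 101 in 1 cell. A UMI of Dcn was found in 19 of 58 untreated and 47 of 70 MSA-2 endothelial cells, of Tnc in 12 and 26 and of Bgn in 17 and 39. After thinning the shares were 8.77% and 29.9% for Dcn, with 9.27% and 30.3% in NK/T cells, so Dcn in endothelial cells is close to the NK/T values. For Tnc they were 3.51% (0.428 to 12.1) and 13.4% (6.33 to 24.0), against 1.32% and 1.90% in NK/T cells, and for Bgn 14.0% and 23.9%, against 2.30% and 5.69%. The untreated endothelial Tnc level is thus not distinguishable from that of NK/T cells. Of the 3 that were lower, Lamc1 was short of 2-fold with doublets kept (-0.98), TMM scaling (-0.90) or equal weight per cell (-0.95). Fbn1 was short of it with 1 marker fewer (-0.87) or with cells of several gates assigned (-0.90).

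Fibronectin, from Fn1, is the glycoprotein on which cells assemble other matrix. It was lower with MSA-2 in each class described here. In fibroblasts it went from 2254 to 858 CPM (-1.39), in the remainder from 940 to 345 CPM (-1.45, interval -1.46 to -1.43) and in endothelial cells from 733 to 124 CPM (-2.57). After thinning, 65.9% of untreated and 36.8% of MSA-2 remainder cells had a Fn1 UMI (99.1% and 92.6% before), against 19.9% and 9.005% of NK/T cells (39.4% and 24.7%). Macrophages held 271 and 115 CPM, against 395 and 115 CPM in NK/T cells, where few cells held most UMIs. The thinned share of macrophages was 23.9% (22.4 to 25.4) and 12.9% (10.7 to 15.3), and 54.0% and 32.6% before thinning, against 17.8 to 22.0% and 5.51 to 13.7% as the intervals of NK/T cells. Free RNA and expression by macrophages cannot be told apart for Fn1. Ly6c2 monocytes were higher, at 605 CPM untreated and 231 CPM with MSA-2 (-1.39), with thinned shares of 44.6% and 18.5%. The endothelial value rests partly on 12 untreated cells, which held 82.7% of the 428 UMIs.

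Fibrillin 1, the fibulins and elastin build microfibrils and elastic fibers. Elastin, from Eln, fell most of this role, with 507 and 137 CPM in untreated and MSA-2 fibroblasts (-1.88, interval -1.998 to -1.77). Thinned shares were 32.4% and 15.8% (62.8% and 55.4% before), against 0.209% and 0 of 211 cells in NK/T cells. Fibroblasts held 66.7% and 66.6% of the Eln UMIs. Fbn1 went from 1101 to 691 CPM in fibroblasts (-0.67) and from 289 to 207 CPM in the remainder (-0.48). Fbln1 was lower, at 235 and 130 CPM (-0.86), and Fbln2 less so, at 988 and 809 CPM (-0.29). Mfap5, a microfibril protein, stood at 1954 and 1603 CPM (-0.29). Over all cells Fbln2 and Mfap5 were higher with MSA-2, by 1.37 and 1.01 on the log2 scale. In untreated Ly6c2 monocytes Mfap5 seemed high, at 72.1 CPM, but 1 cell held 50 of its 63 UMIs.

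Matricellular proteins bind matrix and receptors without building fibers. Sparc, which binds collagen, was at 11900 and 8803 CPM in fibroblasts (-0.43), at 7659 and 7608 CPM in mural cells and at 5861 and 3157 CPM in endothelial cells (-0.89). NK/T cells held 310 and 174 CPM. Postn encodes periostin, a ligand of integrins, and went from 2674 to 1420 CPM in fibroblasts (-0.91) and from 71.4 to 22.7 CPM in the remainder (-1.65), against 28.8 and 60.01 CPM in NK/T cells, where 1 MSA-2 cell held 64 of the 85 UMIs. Thbs2, a thrombospondin, went from 975 to 319 CPM in fibroblasts (-1.61). Cthrc1, a secreted protein of collagen-rich wounds, went from 693 to 224 CPM (-1.63). Tnc, from which tenascin C is made, was the member of this role that was higher, at 1185 and 1425 CPM in fibroblasts (0.27) and 384 and 1072 CPM in mural cells, the latter from 54 and 133 UMIs.

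Thbs1, the other thrombospondin, was the clearest myeloid gene of the 42. In fibroblasts it hardly differed, at 489 CPM untreated and 475 CPM with MSA-2 (-0.04, interval -0.13 to 0.05). Macrophages held 281 and 330 CPM (0.23), Ly6c2 monocytes 908 and 728 CPM (-0.32) and MSA-2 neutrophils 881 CPM. NK/T cells held 8.93 and 21.2 CPM, and the remainder 16.5 and 19.0 CPM. After thinning, 24.6% of untreated and 29.7% of MSA-2 macrophages had a Thbs1 UMI (40.7% and 46.5% before). For Ly6c2 monocytes the shares were 57.4% and 51.0% (67.1% and 65.7% before), and for MSA-2 neutrophils 62.9% (68.1% before). In NK/T cells they were 0.907% and 2.37% (4.72% and 7.31% before). Median depth was 1835 UMIs in MSA-2 neutrophils, of which 718 were too shallow to be thinned. Untreated neutrophils held 38 Thbs1 UMIs in 35 cells, only 9 of which could be thinned, so no comparison is drawn for them.

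**Figure D5:**
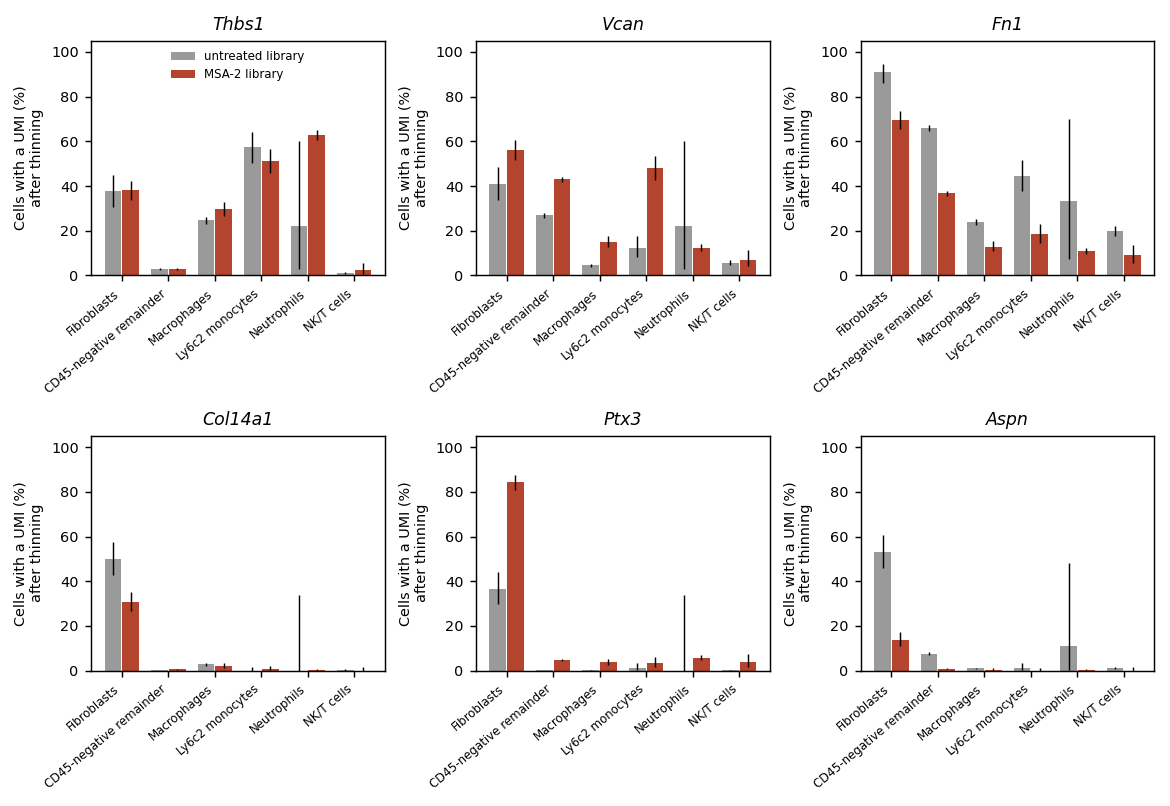
Share of cells with at least 1 UMI (vertical axes, percent, exact 95% interval for counting error) after thinning each cell to 1500 UMIs, for 6 genes and 6 classes, gray for the untreated and red for the MSA-2 library. Untreated neutrophils rest on 9 cells, and NK/T cells serve as the comparison, for example 5.72% and 7.11% for Vcan against 12.3% and 47.9% in Ly6c2 monocytes.

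The small leucine-rich proteoglycans dress collagen fibrils and bind growth factors. Decorin, from Dcn, was the abundant member in the remainder. It rose there from 445 to 1492 CPM, a log2 ratio of 1.74 (1.73 to 1.76), and NK/T cells rose from 140 to 279 CPM. Thinned shares in the remainder were 33.7% and 69.3% (83.4% and 98.7% before), against 9.27% and 30.3% in NK/T cells (21.6% and 59.4%). Fibroblasts were already high, at 3143 and 3703 CPM (0.24). Macrophages, at 72.4 and 281 CPM, were below NK/T cells in the untreated library and level with them in the MSA-2 library, with thinned shares of 6.35% and 24.4% (21.5% and 55.3% before). Of all Dcn UMIs the remainder held 82.0% and 83.0%.

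Lumican, from Lum, lies 47.0 kb from Dcn on chromosome 10 with no coding gene between them. It did not follow its neighbor in fibroblasts, where it went from 679 to 247 CPM (-1.46, and -0.79 with 1 marker fewer needed for the gate). Biglycan, from Bgn, went from 3413 to 2320 CPM in fibroblasts (-0.56) and stood at 2077 and 2289 CPM in mural cells. Among fibroblasts Dcn ran against periostin, with a Spearman correlation of per-cell CPM of -0.43 over 188 untreated and -0.37 over 513 MSA-2 cells.

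Asporin and osteoglycin, from Aspn and Ogn, are neighbors on chromosome 13, read in the same direction and 40.5 kb apart, with Omd between them. Both fell together in the remainder. The 250 bases before each start are shown for that reason, from RefSeq on the plus strand of GRCm38.p6, at chr13:49544193-49544442 for Aspn and chr13:49607765-49608014 for Ogn. Capitals mark TATAAA and CCAAT on either strand.
Aspn: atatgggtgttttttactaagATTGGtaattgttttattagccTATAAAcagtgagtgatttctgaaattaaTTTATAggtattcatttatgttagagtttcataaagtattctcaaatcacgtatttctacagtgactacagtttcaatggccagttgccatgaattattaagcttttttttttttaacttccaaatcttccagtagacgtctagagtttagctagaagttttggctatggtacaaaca
Ogn: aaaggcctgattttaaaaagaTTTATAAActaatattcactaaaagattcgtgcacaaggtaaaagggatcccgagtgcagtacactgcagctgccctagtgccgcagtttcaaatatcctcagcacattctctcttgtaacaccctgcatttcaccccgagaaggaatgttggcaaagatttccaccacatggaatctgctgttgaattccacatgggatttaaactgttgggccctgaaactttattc
In the Ogn stretch TATAAA occurs on both strands and overlaps itself. Of the 27025 promoter windows in the table, 14.2% hold TATAAA and 37.9% hold CCAAT, and of the 26 members matched, 5 and 11 do. The letters are a description of the windows only.

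Aspn went from 45.7 to 4.35 CPM in the remainder, a log2 ratio of -3.39 (-3.51 to -3.28), while NK/T cells held 14.8 and 3.53 CPM. Ogn went from 57.2 to 9.81 CPM, a ratio of -2.54 (-2.62 to -2.47), with 20.8 and 2.82 CPM in NK/T cells. Thinned shares of remainder cells were 7.49% and 0.807% for Aspn (35.8% and 6.52% before) and 8.02% and 1.54% for Ogn (43.4% and 13.7% before). In thinned NK/T cells they were 1.05% and 0 of 211 cells for Aspn and 1.74% and 0.474% for Ogn. Both transcripts also met in the same cells. Of the 2142 untreated remainder cells with Aspn, 61.7% also had Ogn, against 33.2% of the 3842 without it. In the MSA-2 library the shares were 34.1% of 428 cells and 12.2% of 6137. In fibroblasts the genes parted, with Aspn going from 501 to 119 CPM (-2.07) and Ogn from 226 to 175 CPM (-0.38).

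The last group of binding partners surrounds hyaluronan, the large sugar polymer of loose matrix. Has2 encodes an enzyme that makes it, versican (Vcan) is a proteoglycan that binds it and pentraxin 3 (Ptx3) is a secreted pattern-recognition protein that helps to crosslink it. All 3 were higher with MSA-2 in fibroblasts and in the remainder, where 38.55% and 54.62% of all genes were.

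Ptx3 had the highest ratio of the 42 genes in fibroblasts. Its promoter stretch is shown because of that, at chr3:66219637-66219916 on the plus strand of GRCm38.p6 (RefSeq), from 250 bases before to 30 after the start, with capitals for the NF-kappa-B consensus, which matches on both strands with an offset.
Ptx3: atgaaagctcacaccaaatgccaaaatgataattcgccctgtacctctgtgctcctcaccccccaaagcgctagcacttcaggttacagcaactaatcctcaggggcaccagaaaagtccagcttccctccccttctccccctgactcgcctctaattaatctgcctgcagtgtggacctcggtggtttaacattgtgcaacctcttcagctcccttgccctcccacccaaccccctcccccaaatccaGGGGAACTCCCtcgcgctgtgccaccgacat
The consensus occurs in 2 of the 26 members matched, Ptx3 and Thbs2, and in 4.35% of all 27025 windows. The core of the interferon-stimulated response element was found in the window of Fbn1 alone among the members and in 3.49% of all windows. A match says nothing of binding, which was not measured.

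Fibroblasts held 490 CPM of Ptx3 in the untreated library and 2669 CPM after MSA-2, a log2 ratio of 2.45 (2.37 to 2.53). Of the 42 genes it alone was at least 2-fold higher in fibroblasts, and Has2 joined it with TMM scaling (1.02) or 1 marker fewer (1.06). The share of them with a UMI went from 36.7% to 84.4% after thinning and from 59.0% to 95.9% before, against 0.0697% and 3.79% in thinned NK/T cells (0.539% and 10.0% before). The median fibroblast went from 95.3 to 2478 CPM, so the rise was not confined to a few cells. Of all Ptx3 UMIs fibroblasts held 78.1% and 71.7%. In the remainder Ptx3 went from 1.56 to 37.6 CPM, against 0.916 and 21.2 CPM in NK/T cells, with a thinned share of 4.69% in the MSA-2 library that lies close to the 3.79% of NK/T cells. Remainder cells with 5 or 6 fibroblast markers held 32.8% of these UMIs. Over all cells the ratio was 4.21.

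Has2 was low in fibroblasts, at 50.4 and 90.9 CPM (0.85), and most of its UMIs, 86.3% and 86.1%, lay in the remainder. There it rose from 15.4 to 69.8 CPM, a log2 ratio of 2.18 (2.12 to 2.25), against 6.18 and 13.4 CPM in NK/T cells. Thinned shares were 2.82% and 11.1% (23.6% and 59.4% before), against 0.907% and 1.90% in NK/T cells. With at most 2 fibroblast markers allowed, a setting chosen after seeing the data, the remainder held 13.7 and 70.9 CPM. The part of cells near the fibroblast gate in the rise was not tested.

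Vcan went from 226 to 417 CPM in the remainder (0.88) and from 426 to 700 CPM in fibroblasts (0.72), against 99.1 and 88.3 CPM in NK/T cells. In Ly6c2 monocytes it had the largest rise of the matrix genes with 50 CPM in either library, from 81.3 CPM (71 UMIs in 210 cells) to 705 CPM (1098 UMIs in 370 cells), a log2 ratio of 3.12 (2.77 to 3.48). The untreated monocyte level was below the 99.1 CPM of NK/T cells, 25 of which held 49.9% of their UMIs, while the share of cells was above theirs. The thinned share of Ly6c2 monocytes with a UMI was 12.3% and 47.9% (21.4% and 72.4% before), against 5.72% and 7.11% in NK/T cells (14.4% and 23.3%). Monocytes still held only 1.36% of the MSA-2 Vcan UMIs. In macrophages Vcan went from 34.1 to 116 CPM (1.77), and the thinned share from 4.51% to 14.9%. That is below NK/T cells in the untreated library and somewhat above them in the MSA-2 library.

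Lysyl oxidases crosslink collagen and elastin. Lox stood at 634 and 780 CPM in untreated and MSA-2 fibroblasts (0.30), and fibroblasts held 73.5% and 72.5% of its UMIs. Loxl1 was at 511 and 467 CPM (-0.13), and Loxl2 at 149 and 168 CPM (0.17). In the remainder Loxl1 was lower, at 27.0 and 12.7 CPM (-1.08), against 12.0 and 5.65 CPM in NK/T cells. Lox and Loxl2 were higher there, with a median of 1.35 over the 3 genes, all under the 50 CPM used for calls. Lox in the untreated remainder was below the 2.98 CPM of NK/T cells, and after MSA-2 below the 12.2 CPM of neutrophils. Remainder cells with 5 or 6 fibroblast markers held 21.3% and 37.2% of its Lox UMIs. In remainder cells with at most 2 fibroblast markers Lox went from 1.99 to 6.61 CPM and Loxl2 from 4.85 to 12.0 CPM. Over all cells Lox was at 12.4 and 48.2 CPM, a log2 ratio of 1.96.

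In the remainder 22 of the 42 genes reached 50 CPM. Col1a2, Dcn and Has2 were at least 2-fold higher, against 3.3% of all 3518 genes, and Fn1, Postn and Ogn were at least 2-fold lower, against 1.96%. The median over the 42 genes was 0.01, and over all genes 0.04. Of the 3 that were higher, Dcn and Has2 stood above NK/T cells in both libraries in level and in thinned share, and Col1a2 was not above them in level after MSA-2. Neutrophil markers summed to 7.18 and 396 CPM in the remainder, Ly6c2 monocyte markers to 67.5 and 180 CPM and fibroblast markers to 717 and 552 CPM. The part of these marker differences in the matrix ratios was not tested.

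In macrophages 10 genes reached 50 CPM. Col1a1, Col1a2, Dcn and Vcan were at least 2-fold higher, against 7.93% of all 3405 genes, and Fn1 was at least 2-fold lower, against 3.47%. The median over 37 genes was 0.23, and over all genes -0.13. Col1a1 in macrophages, at 33.9 and 70.9 CPM, and Col1a2, at 19.3 and 55.3 CPM, lay below NK/T cells in both libraries. Thinned shares in macrophages were 4.64% and 10.8% for Col1a1 (17.3% and 29.2% before), which is not above NK/T cells, so Col1a1 is read as background. For Col1a2 they were 2.68% and 10.2% (8.30 to 12.4), and 10.8% and 24.0% before thinning, with an NK/T interval of 3.67 to 10.9% after MSA-2 that overlaps. With doublets kept the macrophage ratio of Col1a1 was 0.48, and with 1 marker fewer needed that of Fn1 was -0.98, so each then fell short of 2-fold. The genes whose macrophage level was at least 2-fold above NK/T cells in both libraries were Thbs1, Col14a1 and Col15a1. A single untreated macrophage held 674 of the 5026 Col3a1 UMIs of the class.

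Many members varied together from fibroblast to fibroblast, but not all. Among 23 genes with a UMI in at least 80% of fibroblasts of each library, which give 253 pairs, Col1a1 and Col1a2 had the highest Spearman correlation of per-cell CPM, at 0.88 without treatment and 0.87 with MSA-2. Col1a2 and Sparc had 0.69 and 0.67, Postn and Bgn 0.68 and 0.62, and Col6a1 and Col6a2 had 0.64 and 0.56. Over all pairs the median was 0.28 and 0.21, 217 and 230 of the 253 lay above 0, and the lowest was that of Postn and Dcn given above. These pairs share library and depth, so the values are descriptions. The raw UMI count of Col1a1 correlated with depth at 0.23 and 0.52, and no such correlation was taken for its CPM.

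Further lists, chosen with the members, give the setting in fibroblasts. The list of 24 genes for making and folding collagen had a median log2 ratio of 0.01, with 12 higher and 12 lower. Of all genes in fibroblasts 38.55% were higher. The highest were Creb3l1 (1.23), Adamts14 (0.70) and Tmem38b (0.70), and the lowest Sparcl1 (-1.09), P4ha3 (-0.87) and Adamts2 (-0.85). Sparcl1 encodes a secreted protein related to Sparc, not an enzyme or chaperone of collagen, and is named only because the list holds it. Of 46 other matrix genes, 38 had enough UMIs, with a median of -0.56, against -0.15 over all genes, and 8 at least 2-fold lower of 28 that reached 50 CPM, against 5.88% of all genes. Col8a2 (20.5 and 1.28 CPM, from 54 and 11 UMIs), Col11a1 (-3.57) and Thbs4 (-2.30) had the lowest ratios, and Agrn (1.31), Loxl3 (0.95) and Efemp1 (0.63) highest. Among 17 matrix receptors with enough UMIs the median was -0.35, against the same -0.15. Sdc4 (1.84), Itgb6 (0.996, from 8 and 52 UMIs) and Itga5 (0.98) were highest, and Sdc2 (-1.71), Itga11 (-1.44) and Itga1 (-1.41) lowest.

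Genes of fibroblast states moved apart. All 5 myofibroblast genes were at least 2-fold lower in MSA-2 fibroblasts, with a median of -2.42, against 5.88% of all genes. Acta2, the smooth muscle actin, went from 580 to 107 CPM (-2.44), Tagln from 834 to 173 CPM (-2.27), Lrrc15 from 162 to 25.8 CPM (-2.64), Myl9 from 79.6 to 9.08 CPM (-3.13) and Tpm2 from 247 to 107 CPM (-1.21). The mural markers, none of which is among these 5, summed to 193 and 129 CPM in the same fibroblasts, with 141 and 114 CPM from Ndufa4l2. Whether mural cells within the gate bear on these genes was not tested. All 6 inflammatory genes were higher, with a median of 1.36, and 3 of the 6 were at least 2-fold higher, against 7.27% of all genes. Saa3 went from 1147 to 12047 CPM (3.39), Il6 from 174 to 794 CPM (2.19) and Cxcl10 from 1451 to 4982 CPM (1.78), while Ccl2 (0.93), Cxcl12 (0.70) and Cxcl1 (0.11) did not reach 2-fold. The same list was higher in other classes too. Its median was 1.67 in the remainder, 2.51 in endothelial cells, 1.55 in macrophages, 2.53 in Ly6c2 monocytes and 1.27 in NK/T cells. The rise is thus not particular to fibroblasts, and the part of free RNA in it was not tested. In fibroblasts the 6 genes of the universal state had a median of 0.00, with 3 higher, Ly6a (0.80), Ly6c1 (0.73) and Dpp4 (0.17), and 3 lower, Cd34 (-1.30), Pi16 (-0.51) and Has1 (-0.16). There 38.55% of all genes were higher. Whether the matrix genes differ within a fibroblast state or through the mix of states was not tested.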

How the data were processed

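Droplet-based 3′ RNA-seq libraries (10x Chromium, v3.1) of MC38 tumors were analysed, 1 per condition. The authors deposited raw UMI counts per feature and barcode, without normalization. The submitters' processing notes name Cell Ranger 7.0.0, Seurat 4.3.0 and mm10, and the file headers name Cell Ranger 7.0.1.

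Barcodes were dropped under 500 genes or over 20% mitochondrial UMIs, which left 14039 untreated and 13963 MSA-2 barcodes. Scrublet in scanpy 1.11.5, run per library, called 705 and 570 of them doublets, which were removed. That is 5.02% and 4.08%, against an expected rate of 11.2% in each library, so doublets may remain. Their part in classes where few cells held most UMIs of a gene was not tested. Cells passing several gates (573 and 602) formed no class, apart from those in the macrophage and monocyte gates, kept as a class of their own. Gate sizes were set after marker levels were seen and before matrix gene levels were read. UMIs were summed per class and scaled to CPM. Calls of higher or lower needed a 2-fold ratio, a level of 50 CPM in 1 or both libraries and 50 UMIs together, and medians used 1 CPM added to both values. The floor for a count of 0 was set at 3 counts.

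All 42 genes are named by role. For the further lists the text names the 3 highest and 3 lowest ratios. Genes singled out for the number of cells holding their UMIs, for position or for sequence were chosen after their values were seen. The members and lists were chosen with earlier results of these data known. Ratio code was tested on simulated counts with known changes. Gene positions came from GENCODE M21 (GRCm38), where all 42 identifiers matched. Python 3.11.15, numpy 2.4.6, scipy 1.17.1, pandas 2.3.3, matplotlib 3.10.9, R 4.3.3 and edgeR 4.0.16 (TMM factors) were used. Alternatives covered the cell filter, doublets, gate size, cells of several gates, scaling, weight per cell, low-count minimum and added CPM.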

Additional observations from a re-analysis of the deposited data

Results flagged for a closer look

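For 7 of the 42 genes the ratio of MSA-2 over untreated lay on opposite sides of 0 in fibroblasts and in the CD45-negative remainder, with both counting intervals clear of 0 and at least 1 of both ratios past 2-fold. Of all 9991 genes with enough UMIs in both classes, 1.65% met these limits. Each of the 7 was lower in fibroblasts and higher in the remainder. The log2 ratio in the remainder exceeded that in fibroblasts by 2.53 for Lum, 2.45 for Cthrc1, 2.13 for Col1a2, 1.74 for Fbln2, 1.53 for Col14a1, 1.50 for Col8a1 and 1.38 for Col6a2. The difference was not tested, since each class has 1 library per condition. With TMM scaling Col6a2 and Col8a1 no longer met the limits, and with 1 marker fewer needed for the gates only Lum and Cthrc1 of the 7 did, with fibroblast ratios of -0.57 for Col14a1, -0.79 for Col8a1 and -0.82 for Col6a2, and with Fbln2 higher (0.38). In remainder cells with at most 2 fibroblast markers the ratios kept their side, at 1.20 for Lum, 0.61 for Cthrc1, 1.13 for Col1a2, 1.15 for Fbln2, 0.28 for Col14a1, 0.49 for Col8a1 and 0.51 for Col6a2, and the interval of Col14a1 then included 0. Col14a1 and Fbln2 were under the 50 CPM used for calls in the remainder of both libraries. They had 301 and 768 UMIs in the untreated library and 2.62 and 14.9 CPM after MSA-2. Lum and Cthrc1 were also under it there, at 3.66 and 7.70 CPM and at 1.86 and 3.27 CPM. NK/T cells held 1.95 and 4.94 CPM of Lum, from 17 and 7 UMIs, and 1.72 CPM and 0 UMIs of Cthrc1, so the untreated Cthrc1 level in the remainder was close to theirs. After MSA-2 both genes were lower in the remainder than the 8.35 and 4.23 CPM of neutrophils. Remainder cells with 5 or 6 fibroblast markers held 42.4% and 47.8% of the remainder's Cthrc1 UMIs and 25.6% and 19.1% of its Lum UMIs. Col6a2 and Col8a1 were above the NK/T level in the remainder of both libraries, while Col1a2, Fbln2 and Col14a1 with MSA-2 were not, at 63.7, 14.9 and 2.62 CPM against 68.5, 23.3 and 4.24 CPM. In these NK/T cells 1 cell held 19 of the 33 Fbln2 UMIs, and 1 held 32 of the 97 Col1a2 UMIs. After thinning, remainder shares with MSA-2 were 7.37%, 2.16% and 0.533% (57.9%, 19.7% and 5.30% before), with 6.64%, 2.37% and 0 of 211 cells in NK/T cells (23.3%, 6.39% and 2.74%). The part of free RNA in the differences was not tested.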

How the results depend on the processing

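No paired analysis was possible because each condition has 1 library. In all, 120 ratios of matrix genes were followed under the alternatives, which gave 920 values. No gene past 2-fold changed sign, while 30 values of other genes did, 8 of them in fibroblasts with 1 marker fewer. Of the 920 values, 613 stayed within the counting interval of the ratio, and 20 of 297 values of genes past 2-fold fell short of it. The alternatives for the remainder (no depth minimum, at most 2 fibroblast markers), for gate size in the counts past 2-fold for the genes on opposite sides of 0 and for fixed class shares were chosen after seeing the data.

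The median log2 ratio in fibroblasts, -0.50, was -0.09303 with 1 marker fewer needed and lay between -0.65 and -0.09 over all alternatives. The cause was not tested.

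The fibroblast share of matrix UMIs in the untreated library, 17.96%, was 18.21% with the strict cell filter, 17.7% with doublets kept, 16.56% with 1 more marker needed, 18.08% with 1 fewer and 19.93% with cells of several gates assigned. In the MSA-2 library, 32.0% became 29.11%, 31.87%, 28.22%, 30.02% and 33.42% in the same order. The remainder's share in the untreated library, 71.2%, was 71.27% with the strict filter, 71.02% with no filter, 66.85% with doublets kept, 73.74% with 1 more marker, 63.2% with 1 fewer, 72.39% with no depth minimum and 36.66% with at most 2 fibroblast markers. In the MSA-2 library, 58.8% became 54.66% with the strict filter, 56.52% with doublets kept, 63.43% with 1 more marker, 54.96% with 1 fewer, 59.97% with no depth minimum and 42.15% with at most 2 fibroblast markers. The last setting takes cells out of the class, so its shares fall by construction.

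Fibroblasts as a share of untreated cells, 1.41%, were 1.177% with 1 more marker and 1.897% with 1 fewer. In the MSA-2 library, 3.83% became 4.548% with the strict filter and 3.188% with 1 more marker.

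In fibroblasts 2 genes were at least 2-fold higher with TMM scaling and 2 with 1 marker fewer, and the count at least 2-fold lower, 12, was 5 with 1 marker fewer and 16 with 1 more. In the remainder 7 were higher and 5 lower with a minimum of 10 CPM, which tests more genes, and 1 was lower with at most 2 fibroblast markers, where Fn1, Postn and Ogn all stayed past 2-fold but not all reached 50 CPM. In endothelial cells 5 were lower with 1 marker fewer. In macrophages 7 were higher with a minimum of 10 CPM and 0 lower with 1 marker fewer. Of the 7 genes on opposite sides of 0 in fibroblasts and in the remainder, Cthrc1 and Lum were among the 4 with 1 marker fewer, where Eln and Loxl1 were added. Apart from the construction named, the cause was not tested.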

Other observations

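With 1 pooled library per condition, tumors, handling and treatment cannot be told apart, and no interval covers the spread between tumors. Dissociation recovers cell types unequally, and the cells were sorted by an unnamed rule, so shares of UMIs describe the suspension. Mural and endothelial cells were few, and their ratios rest on 22 and 15 and on 58 and 70 cells. The CD45-negative remainder has no epithelial marker to define it, and its border with the fibroblasts rests on a number of markers. Transcripts were counted at their 3′ ends, so neither isoforms nor protein were measured, and an order of genes by CPM is one of UMIs.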
